A study of Mus musculus with 84 samples.

Results

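Epididymal white adipose tissue (eWAT), the gonadal fat depot of male mice, was compared between 6 mice given BI 456906 at 20 nmol/kg and 6 mice given vehicle. These 12 libraries, chosen by tissue and treatment in the sample labels, are among the 84 RNA sequencing libraries of liver and eWAT from the study. All mice were male C57BL/6J, 22 weeks old at the start of dosing, single-housed, made obese on a diet with 60% fat, and injected subcutaneously once a day for 30 days. Every group, vehicle included, stayed on that diet, and the labels give no transgene, deletion or second agent. BI 456906 is a peptide agonist of 2 receptors, the glucagon receptor (GCGR) and the receptor for glucagon-like peptide-1 (GLP-1R). For comparison at a matched dose, 6 mice received semaglutide, which activates GLP-1R alone, at 20 nmol/kg, and for comparison of dose 6 mice received BI 456906 at 30 nmol/kg.

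White adipocytes store fatty acids as triglyceride and release them again by lipolysis, and their lipid synthesis genes are driven by insulin and by feeding. The depot also holds stromal cells, vessels, macrophages, lymphocytes and a mesothelial lining, so that a tissue library mixes all of these. In bulk libraries, fewer cells of a type and less RNA per cell cannot be told apart.

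The 12 libraries held 40313670 to 52096702 reads on genes, recovered from the deposited scaled counts. Levels are given as TPM, a share of each library's transcripts after scaling for gene length, as the lowest, median and highest of 6 mice. Differences are log2 fold changes with their standard error (SE) from limma/voom over the 42 eWAT libraries of 7 groups, and the false discovery rate (FDR) is the Benjamini-Hochberg value over all 18536 genes tested. Calls required an FDR of at most 0.05 together with a log2 fold change of 1 or more in either direction. Genes with a mean liver level of at least 1 TPM and at least 10 times their median eWAT level were set aside, which removed 684 of the genes tested and left 17852.

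Libraries that stood apart were identified first, from marker transcripts. The summed TPM of 14 liver markers such as Alb, which encodes albumin, was 39.4, 2549.7 and 8852 in vehicle and 47.9, 224 and 836 at 20 nmol/kg. Vehicle mouse 1 was therefore as low as the treated mice, and the other 5 vehicle mice were all above them. The sum of 10 B cell markers was 351, 610.5 and 7249 TPM in vehicle against 154, 272 and 1371 TPM, with vehicle mice 1 and 3 and treated mouse 22 above 1000 TPM. The sum of 10 mesothelial markers was 13.5, 91.6 and 195 TPM in vehicle against 130.1, 139 and 291 TPM, with vehicle mice 1 and 6 below 50 TPM. Adipocyte markers overlapped, at 19704 to 38731 TPM in vehicle and 19961 to 41402 TPM at 20 nmol/kg, so that the labelled tissue was borne out by its own markers in all 12 libraries. Their sums were split within each group. Vehicle mice 5 and 6 were at 38731 and 36290 TPM and the other vehicle mice at 22860 TPM or less. Treated mice 20 and 23 were at 41056 and 41402 TPM and the other treated mice at 26201 TPM or less. The mice high in adipocyte markers had the lowest macrophage marker sums of their groups. They were not left out as a set. Epididymis and testis transcripts were near absent, at 0.45 TPM or less in each library for the sum of 12 markers, and 7 of the 12 were listed at 0 throughout.

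**Figure D1:**
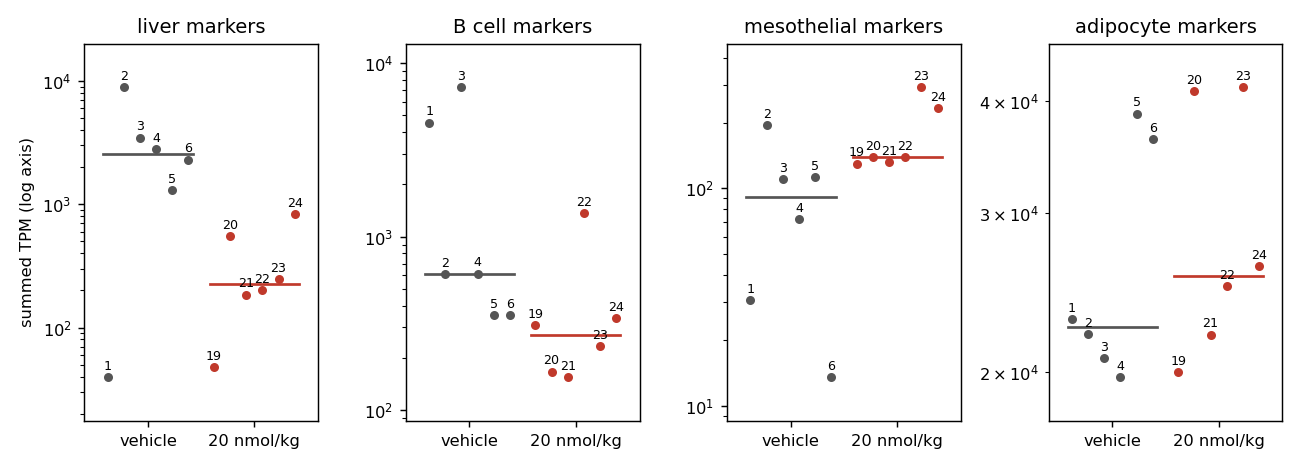
Summed TPM (log axis) of liver, B cell, mesothelial and adipocyte markers in the 6 vehicle (grey) and 6 BI 456906 20 nmol/kg (red) libraries; each point is 1 mouse with its library number, and bars are medians. Vehicle mice 2 to 6 lie above all treated mice for liver markers, vehicle mice 1 and 3 carry the highest B cell sums, and vehicle mice 1 and 6 the lowest mesothelial sums.

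At 20 nmol/kg, 61 genes were higher than in vehicle (0.342% of those tested) and 111 were lower (0.622%). By fold, among called genes with at least 1 TPM whose groups did not overlap, the falls were led by Pvalb, Gas2l2, Oxtr and Lipf and the rises by Lrp2, Pkhd1l1, Eva1c, Fmod and Slc10a6. These genes were picked for not overlapping, so their lack of overlap is no added support. The falls also included Mogat2 and Dgat2 of triglyceride synthesis and Pnpla3, a lipid droplet gene on the insulin and glucose uptake list. By FDR alone, 253 genes were higher (1.42%) and 410 were lower (2.3%), and the median log2 fold change over all genes was -0.01. Counts within each gene and marker list below are to be read beside these shares. The 6 values of each group did not overlap for 20 of the 61 rises and 51 of the 111 falls, against 2.48% of all genes. A further 104 genes that had been set aside were called lower and none higher, and these are left out of every count that follows. Scaling by library size alone turned the split by FDR from 253 higher and 410 lower to 419 higher and 302 lower, log2(TPM + 0.1) gave 438 and 254, and leaving out vehicle mouse 5 gave 413 and 259. The balance of rises and falls by FDR alone was therefore not stable, whereas among called genes the falls were more numerous under each of these 3 settings.

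The number of calls depended on the libraries named above. Without vehicle mice 2, 3, 4 and 6, whose liver marker sums exceeded 10 times the median of the treated eWAT libraries, 4 genes were called higher and 43 lower, with 2 vehicle mice left. Without the 3 libraries rich in B cell transcripts, 14 were called higher and 140 lower. Without vehicle mice 1 and 6, 25 were called higher and 95 lower. Under each of these 3 exclusions more genes were called lower than higher.

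Oxtr (chr6:112473683-112489943, GRCm38) encodes the oxytocin receptor, a G protein-coupled receptor present on adipocytes. Its level was 31.8, 38.6 and 51 TPM (lowest, median and highest) in vehicle and 2.11, 5.29 and 15.7 TPM at 20 nmol/kg. The treated maximum came from mouse 22 alone, the other 5 being at 6.91 TPM or less. The log2 fold change was -2.86 (SE 0.41, limma/voom FDR 9.28e-05), and the call held under each of the other settings and exclusions in which it was recomputed. Pex5l, which encodes a peroxin 5-related protein known for binding ion channels, fell from 2.01, 2.67 and 3.94 TPM to 0.28, 0.52 and 1.15 TPM. Its log2 fold change of -2.46 (SE 0.32, limma/voom FDR 1.86e-05) had the smallest FDR of all genes that were not set aside.

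Pvalb encodes parvalbumin, a calcium-binding protein best known from fast muscle and interneurons. It had the largest fall, from 0.65, 3.13 and 3.91 TPM to 0.04, 0.2 and 0.25 TPM, a log2 fold change of -4.05 (SE 0.59, limma/voom FDR 0.000122). These levels rest on few reads, 15 to 93 per vehicle library and 1 to 5 per treated library. Pvalb was also on the list of skeletal muscle markers, of which the other 5 tested members were between -0.36 and 0.91 on the log2 scale with none past the FDR. The muscle marker sum was 86.9 to 215 TPM in vehicle and 139 to 383 TPM at 20 nmol/kg, so it did not fall with Pvalb.

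Among the other large falls, Lipf encodes a secreted acid lipase, known as gastric lipase. Its level went from 2.3, 4.33 and 7.42 TPM to 0.18, 0.77 and 0.92 TPM, with a log2 fold change of -2.85 (SE 0.42, limma/voom FDR 0.000125). Peg10, an imprinted gene derived from a retrotransposon, went from 11.8, 15.9 and 34.1 TPM to 2.66, 5.32 and 8.89 TPM, with a log2 fold change of -1.90 (SE 0.35, limma/voom FDR 0.00151). Peg10 was called under every setting recomputed. Gas2l2, which encodes a cytoskeletal linker protein, fell by 3.13 on the log2 scale (SE 0.54), Bpifb6 by 2.73 (SE 0.66), Ncan, which encodes the proteoglycan neurocan, by 1.91 (SE 0.38) and Dusp15, a dual-specificity phosphatase gene, by 1.87 (SE 0.36). These 4 genes were at medians of 1.2 to 2.19 TPM in vehicle and of 0.195 to 0.535 TPM at 20 nmol/kg.

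Fcer2a, which encodes the low-affinity receptor for immunoglobulin E on B cells, fell by 2.29 on the log2 scale (SE 0.47, limma/voom FDR 0.00438), from 0.37, 0.915 and 1.85 TPM to 0.06, 0.14 and 0.33 TPM. It was the 1 member of the 10 B cell markers that passed the test. All 10 had a log2 fold change below 0, with a median of -1.36 against -0.01 over all genes. Without the 3 libraries rich in B cell transcripts, Fcer2a stood at -1.90 (limma/voom FDR 0.0161) and the median of the list at -0.84.

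**Figure D2:**
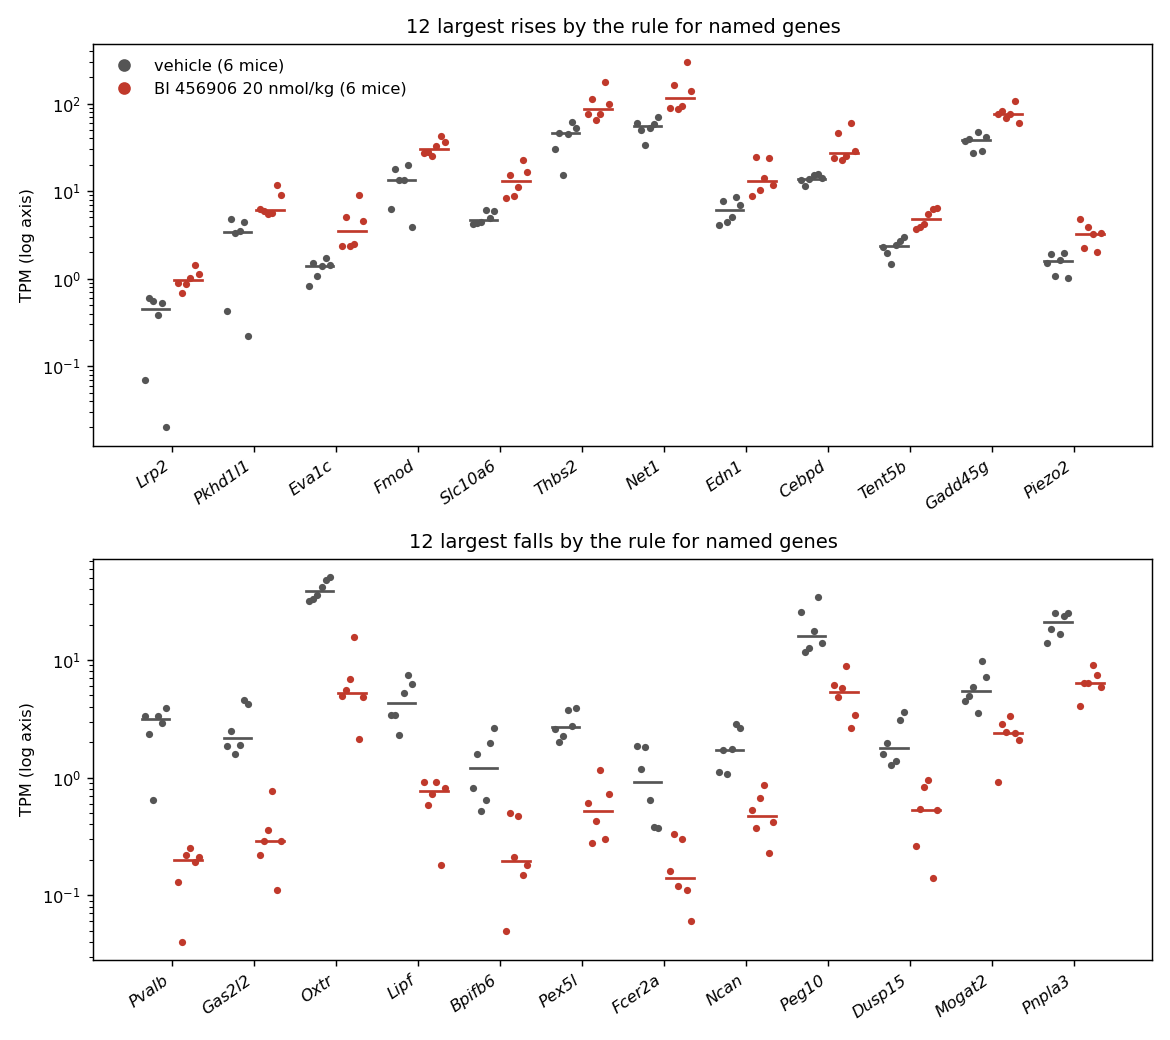
TPM (log axis) in each of the 6 vehicle (grey) and 6 BI 456906 20 nmol/kg (red) mice for the 12 largest rises and 12 largest falls among called genes whose groups do not overlap; points are mice and bars are medians. In vehicle, mice 1 and 6 lie far below the other 4 mice for Lrp2 and Pkhd1l1, and Oxtr is at 31.8 TPM or more in all vehicle mice.

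The neighbouring genes Mogat2 (chr7:99219084-99238619) and Dgat2 (chr7:99153658-99182719), on the list of triglyceride synthesis and storage, and Pnpla3 (chr15:84167837-84187236), on that of insulin and glucose uptake, were called lower. Mogat2 encodes a monoacylglycerol acyltransferase, and its level was 3.51, 5.4 and 9.87 TPM in vehicle and 0.91, 2.42 and 3.34 TPM at 20 nmol/kg. Dgat2 encodes an acyltransferase for the last step of triglyceride synthesis, and its level was 574, 751 and 1147 TPM in vehicle and 192, 309 and 438 TPM at 20 nmol/kg. Pnpla3 encodes a lipid droplet protein with lipase and acyltransferase activity that is induced by insulin and feeding, and its level was 13.8, 21.1 and 24.9 TPM in vehicle and 4.04, 6.33 and 9.1 TPM at 20 nmol/kg. In each of these genes all 6 treated mice were below all 6 vehicle mice, which was a condition for picking them among the large falls. The log2 fold changes were -1.77 for Mogat2 (SE 0.39, FDR 0.00775), -1.41 for Dgat2 (SE 0.40, FDR 0.0344) and -1.70 for Pnpla3 (SE 0.31, FDR 0.00124), all by limma/voom.

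Of 20 genes on the triglyceride synthesis and storage list, 3 were set aside as liver-rich (Gk, Plin5, Fitm1). Of the other 17, 4 fell by FDR (Mogat2, Dgat2, Agpat2, Bscl2), 2 of them called, and none rose. Over all genes the shares were 2.3% lower by FDR and 0.622% called lower. Agpat2, which makes phosphatidic acid, was at -0.79 (FDR 0.0119) and Bscl2, which encodes the lipid droplet protein seipin, at -0.41 (FDR 0.0486). The 17 ranged from -1.77 to 0.49 with a median of -0.03, against -0.01 over all genes. Without the libraries rich in B cell transcripts 4 members passed the FDR and the median was -0.12. Without the vehicle libraries rich in liver transcripts none passed and the median was -0.28, with 2 vehicle mice left.

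De novo lipogenesis builds fatty acids from acetyl-CoA. Of its 20 listed genes, 2 were set aside, 3 of the remaining 18 fell by FDR and none rose, with 15 below 0 and a median of -0.28. The share of all genes lower by FDR was 2.3%. Scd2, a stearoyl-CoA desaturase gene, was called at -1.40 (SE 0.26, limma/voom FDR 0.00156), from 32.7, 56 and 107 TPM to 16.7, 20.6 and 35.4 TPM, with overlapping groups. Elovl6, a fatty acid elongase gene, was at -0.83 (FDR 0.0128), with levels of 4.39 to 9.47 TPM in vehicle and 3.03 to 4.38 TPM at 20 nmol/kg. Elovl5 was at -0.28 (FDR 0.0133), and Acly, which makes cytosolic acetyl-CoA, was at -0.20 (SE 0.06) with an FDR of 0.0572. No member passed without the vehicle libraries rich in liver transcripts, where the median was -0.28 with 2 vehicle mice left. In the exclusion by B cell markers 5 fell by FDR, and in that by mesothelial markers 3 did.

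Cholesterol synthesis and uptake had 18 genes to describe. Of these 3 fell by FDR, beside 2.3% of all genes, and none rose, 16 were below 0, and the median was -0.25. Nsdhl, a sterol dehydrogenase gene, was at -0.62 (FDR 0.00398), Insig1, which encodes a sterol-sensing retention protein, at -0.65 (FDR 0.00788) and Hmgcs1, which makes the precursor of mevalonate, at -0.59 (FDR 0.0313). None reached the fold needed for a call. Nsdhl did not overlap between the groups, at 15.5 to 30.3 TPM in vehicle and 13 to 15 TPM at 20 nmol/kg. No member passed without the vehicle libraries rich in liver transcripts, where the median was -0.28 with 2 vehicle mice left. In the exclusion by B cell markers 6 fell by FDR, and in that by mesothelial markers 2 did.

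Few genes of adipocyte identity passed the FDR. Of 19 described genes for adipocyte identity and adipokines, 1 fell by FDR and none rose, with a median of -0.06. That gene was Lpl, which encodes the lipase that breaks down the triglyceride of lipoproteins. Its level was 2740.4, 2888 and 3708 TPM in vehicle and 1978, 2087 and 2138 TPM at 20 nmol/kg, with no overlap, a log2 fold change of -0.60 (SE 0.09, limma/voom FDR 9.28e-05). Lpl was below the fold needed for a call, and its FDR stayed at 0.00511, 0.000541 and 0.000809 without the libraries set apart by liver, B cell and mesothelial markers. Adipoq, which encodes adiponectin, was at -0.06 (SE 0.29) and Fabp4, an abundant fatty acid binding protein gene, at 0.10 (SE 0.22).

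Lep encodes leptin, the hormone that adipocytes secrete in proportion to fat stores. Its level was 810, 965 and 1646 TPM in vehicle and 274, 425 and 806 TPM at 20 nmol/kg, so that the groups did not overlap, by a narrow margin. The log2 fold change of -1.32 (SE 0.44) had a limma/voom FDR of 0.0763 and was not called. Mest, an imprinted gene known to track fat cell enlargement, was at 174, 247 and 498 TPM in vehicle and 14.9, 96.9 and 191 TPM at 20 nmol/kg, for a log2 difference of -2.03 (SE 0.62) and an FDR of 0.0506. Both genes passed in some settings and not in others, Mest being called in 8 and Lep in 6 of 25.

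Of 19 genes of lipolysis and its control, 2 fell by FDR, beside 2.3% of all genes, both encoding receptors that inhibit lipolysis. Adora1, the adenosine receptor that restrains lipolysis, fell from 18.4, 25 and 45.7 TPM to 9.25, 15 and 16.6 TPM, a log2 fold change of -1.07 (SE 0.26, limma/voom FDR 0.0131). Ptger3, a prostaglandin E2 receptor of the same inhibitory class, was at -0.89 (FDR 0.0262). The other inhibitory receptors on the list were Adra2a, an adrenergic receptor gene, at -0.35 (FDR 0.597), and the hydroxycarboxylic acid receptor genes Hcar1 at -0.04 (FDR 0.967) and Hcar2 at 0.07 (FDR 0.947). The median of the list was -0.02. No member passed without the vehicle libraries rich in liver transcripts, where the median was -0.18 with 2 vehicle mice left. In the exclusions by B cell and by mesothelial markers 2 fell by FDR each time.

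Of the receptors that the 2 peptides act on, Glp1r was near absent and Gcgr was detected. Glp1r had 0 to 3 reads in vehicle and 0 to 1 in treated libraries, below the filter, and was not tested. Gcgr was set aside because its mean liver level was 207 TPM, and it ranged from 1.61 to 19 TPM in vehicle and from 1.45 to 7.5 TPM at 20 nmol/kg. The log2 fold change of Gcgr was -1.03 (SE 0.44, FDR 0.168), and it was -0.13 without the vehicle libraries rich in liver transcripts. Gipr, which encodes the receptor for the incretin GIP, was at -0.40 (SE 0.23, FDR 0.329). None of the 21 described genes of the list of glucagon and incretin receptors and cAMP signalling passed the FDR, with a median of 0.00 and Pde7a, a cAMP phosphodiesterase gene, nearest at -0.67 (FDR 0.0573).

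Few genes of heat production and fuel oxidation passed the FDR. Of 15 thermogenic genes described, Otop1, a proton channel gene, was the only one past the FDR, at -1.12 (SE 0.30, FDR 0.0244), from 4.15, 4.76 and 6.34 TPM to 0.88, 2.67 and 3.82 TPM. No thermogenic gene passed the FDR under any of the exclusions by liver, B cell or mesothelial markers. Ucp1, the uncoupling protein of brown fat, was at 0.48 TPM or less in all 12 libraries and was not called (0.43, SE 0.71). The 15 ranged from -1.12 to 1.14 with a median of 0.15. Ckmt1, a mitochondrial creatine kinase gene, was at 1.14 (FDR 0.425) and Dio2, which encodes the deiodinase that activates thyroid hormone, at 0.87 (FDR 0.323). None of 15 described genes of fatty acid oxidation, 20 of mitochondrial respiration and 20 of branched-chain amino acid breakdown passed the FDR, with medians of -0.10, -0.04 and -0.01. In the insulin and glucose uptake list of 20, Igf1r rose (0.32, FDR 0.0253) and Pnpla3 fell, and Irs2 and Irs3, which encode insulin receptor substrates, were at 0.70 (FDR 0.0573) and -0.78 (FDR 0.0517). No member of that list rose by FDR under any of the same exclusions, and none fell without the vehicle libraries rich in liver transcripts.

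**Figure D3:**
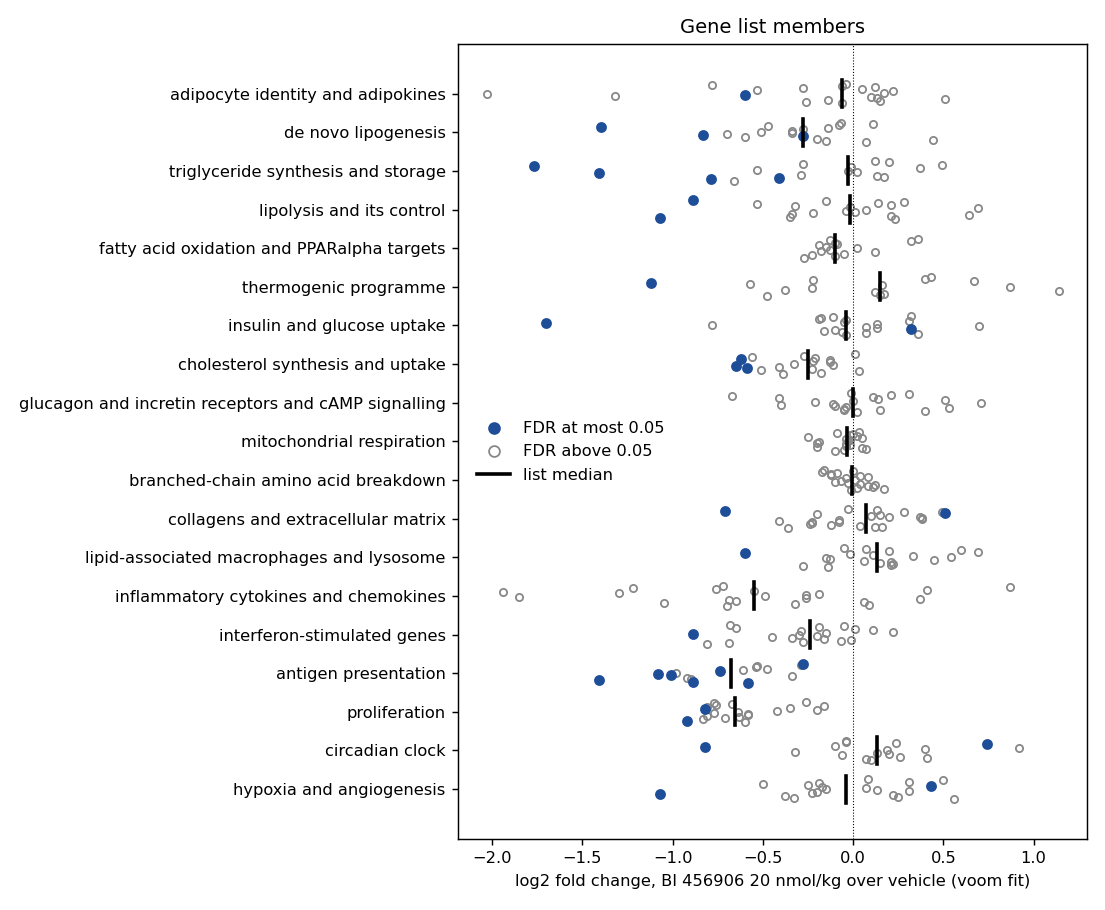
Log2 fold change of BI 456906 20 nmol/kg over vehicle for the members of 19 gene lists that were tested and not set aside; each circle is a gene, filled blue at an FDR of at most 0.05, and black bars are list medians. Antigen presentation and proliferation have every member below 0, with 7 of 16 and 2 of 20 past the FDR, and the mitochondrial and branched-chain amino acid genes lie close to 0.

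Antigen presentation held the most members past the FDR of the 19 lists. All 16 genes were below 0 with a median of -0.68, 7 passed the FDR and 3 were called. Of all genes, 2.3% were lower by FDR and 0.622% were called lower. Ciita, the master regulator of MHC class II transcription, was at -1.41 (SE 0.35, FDR 0.0176), and H2-DMb1 and H2-DMa, which load peptide onto class II molecules, were at -1.08 (FDR 0.00721) and -1.01 (FDR 0.0356). B2m, the light chain of MHC class I, was at -0.58 (FDR 0.00813), H2-K1, a class I heavy chain, at -0.74 (FDR 0.0165), Cd74, the class II invariant chain, at -0.89 (FDR 0.0486) and Tapbp, which encodes tapasin, at -0.28 (FDR 0.049).

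The spread of these genes in vehicle was set by mice 1 and 3. H2-DMb1 was at 269.12 and 299.01 TPM in mice 1 and 3 and at 108.50 to 127.40 TPM in the other 4, against 48.9, 82.9 and 101 TPM at 20 nmol/kg. Ciita was at 36.97 and 50.50 TPM in mice 1 and 3 and at 9.54 to 12.48 TPM in the other 4, against 4.49, 6.82 and 9.79 TPM. Those 2 mice also had the highest B cell marker sums, 4542.57 and 7249.21 TPM, and the part of these cells in the result was not tested apart from leaving libraries out. Without the 3 libraries rich in B cell transcripts, none of the 16 passed the FDR and the median was -0.30. Without the vehicle libraries rich in liver transcripts, 2 passed (B2m and H2-K1) and the median was -0.87. That exclusion left only vehicle mice 1 and 5, and mouse 1 is rich in B cell transcripts. B2m was at 5119.3 TPM in mouse 1 and 3250.54 TPM in mouse 5, and H2-K1 at 3112.42 and 1413.95 TPM. The values of this exclusion therefore lean on mouse 1.

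The CCAAT box, called the Y box in MHC promoters, is a site bound by the factor NF-Y and is searched here as a description of what these promoters share. The letters CCAAT, on either strand, occurred in the 250 bases before the start in 33.8% of all 32851 RefSeq promoter windows (GRCm38.p6). Of the 7 antigen presentation genes past the FDR, 5 had a window in that set (B2m, H2-DMa, H2-DMb1, H2-K1, Tapbp), and each of the 5 held the letters in at least 1 window, or 6 of 7 windows. In the sequences below, shown because they belong to class I and class II genes that fell together, capitals mark the match, which reads ATTGG on the strand printed. The windows are chr2:122147437-122147686 (+) for B2m, chr17:34152941-34153190 (+) for H2-DMb1 and chr17:34000348-34000597 (-) for H2-K1, and the matches begin 53, 61 and 16 bases before the start.
B2m: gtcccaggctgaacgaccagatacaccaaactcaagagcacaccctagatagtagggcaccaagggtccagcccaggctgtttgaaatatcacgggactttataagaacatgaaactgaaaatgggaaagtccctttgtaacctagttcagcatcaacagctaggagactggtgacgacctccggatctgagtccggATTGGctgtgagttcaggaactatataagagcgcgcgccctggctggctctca
H2-DMb1: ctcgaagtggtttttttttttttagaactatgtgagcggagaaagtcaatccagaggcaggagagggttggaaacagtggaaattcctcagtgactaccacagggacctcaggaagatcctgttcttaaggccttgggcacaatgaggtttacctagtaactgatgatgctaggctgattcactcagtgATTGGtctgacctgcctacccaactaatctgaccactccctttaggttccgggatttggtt
H2-K1: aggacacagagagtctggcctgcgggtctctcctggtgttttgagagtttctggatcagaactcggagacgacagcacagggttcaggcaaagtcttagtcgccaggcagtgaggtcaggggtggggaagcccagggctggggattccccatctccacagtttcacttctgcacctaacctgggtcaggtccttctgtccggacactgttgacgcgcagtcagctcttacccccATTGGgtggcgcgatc

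The sterol response element, bound by SREBP factors, was searched as TCACNCCAC on both strands, and occurred in 1.05% of all windows. Of the 11 genes of lipogenesis, triglyceride, cholesterol and insulin lists that fell by FDR, 8 had a window in the set, and 1 of them, Hmgcs1, held the letters. Its window, chr13:119690101-119690350 (+), is shown because it is that 1 gene, with the match in capitals beginning 137 bases before the start. The windows of Agpat2, Bscl2, Elovl5, Elovl6, Insig1, Nsdhl and Pnpla3 did not hold these letters.
Hmgcs1: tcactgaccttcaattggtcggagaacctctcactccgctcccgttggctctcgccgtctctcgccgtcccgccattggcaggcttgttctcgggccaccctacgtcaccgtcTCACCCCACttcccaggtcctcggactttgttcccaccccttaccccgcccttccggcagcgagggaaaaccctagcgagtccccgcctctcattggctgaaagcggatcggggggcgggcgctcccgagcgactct

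Other immune and stromal lists had fewer members past the FDR. All 20 proliferation genes were below 0 with a median of -0.65, and 2 passed the FDR, beside 2.3% of all genes lower by FDR. These were Mcm5, a replication helicase gene, at -0.82 (FDR 0.0427) and Aurkb, a mitotic kinase gene, at -0.92 (FDR 0.0497). No proliferation gene passed the FDR under any of the exclusions by liver, B cell or mesothelial markers. The median of that list was -0.6, -0.58 and -0.65 in that order. None of 21 cytokines and chemokines passed, with a median of -0.55. Cxcl10, an interferon-induced chemokine gene, was at 15.51 and 39.35 TPM in vehicle mice 1 and 3, at 1.05 to 3.92 TPM in the other 4 and at 0.78 to 2.31 TPM at 20 nmol/kg. Its log2 fold change of -1.85 (SE 0.70, FDR 0.119) was -0.83 without the libraries rich in B cell transcripts. Of 20 interferon-stimulated genes, Mx1, an antiviral GTPase gene, fell (-0.89, FDR 0.0403). Its level was 4.09 and 4.34 TPM in vehicle mice 1 and 3, 1.62 to 2.76 TPM in the other 4 and 1.01 to 1.92 TPM at 20 nmol/kg. Without the libraries rich in B cell transcripts Mx1 stood at -0.49 (FDR 0.348), none of the 20 passed, and the median of the list went from -0.24 to 0.03. Of 20 genes of lipid-associated macrophages, only Lpl passed, and none of 12 macrophage markers did, with sums of 1480.1 to 3214 TPM in vehicle and 1548 to 3511 TPM at 20 nmol/kg.

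The remaining cell type markers overlapped between the groups with few members past the FDR. All 14 liver markers were below 0 with a median of -2.45, and none passed the FDR, the spread among vehicle mice being wide. All 12 T cell and NK cell markers were below 0 with a median of -0.98, and none passed. Their sum was 167.76 and 219.32 TPM in vehicle mice 1 and 3 and 24.52 to 44.97 TPM in the other vehicle mice. At 20 nmol/kg it was 22.8 to 58.6 TPM. Without the libraries rich in B cell transcripts the median of these markers was -0.21. Of 10 stromal and preadipocyte markers 1 (Cd55) fell by FDR, with a median of 0.08 and sums of 607 to 737 TPM in vehicle and 728 to 784 TPM at 20 nmol/kg. No marker of dendritic cells (8), mast cells and granulocytes (9), endothelium (9), mural cells (8) or erythroid cells (5) passed, with medians of -0.56, -0.07, 0.00, 0.16 and 0.07. The dendritic cell median was -0.02 without the libraries rich in B cell transcripts.

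Of 24 genes of collagens and extracellular matrix, 1 fell and 1 rose by FDR, beside 2.3% lower and 1.42% higher of all genes. These were Sparc, a collagen-binding glycoprotein of the matrix (-0.71, FDR 0.0292), and Mmp14, a membrane-bound collagenase (0.51, FDR 0.0448), and the median of the list was 0.07. Sparc overlapped between the groups and was highest in vehicle mice 5 and 6, at 4071 and 3936 TPM. No member passed without the vehicle libraries low in mesothelial markers, none rose by FDR without the libraries rich in B cell transcripts, and none fell without the vehicle libraries rich in liver transcripts. In the clock list of 17, Per1, a period gene, rose (0.74, FDR 0.00647), from 27.8 to 50.2 TPM in vehicle to 47.1 to 79.5 TPM, and Nr1d1, the repressor REV-ERB alpha, fell (-0.82, FDR 0.0345). In the hypoxia and angiogenesis list of 20, Ndrg1 rose (0.43, FDR 0.0408) and Aplnr, the apelin receptor, fell (-1.07, FDR 0.0478), from 8.15, 11.2 and 14.7 TPM to 2.27, 6.15 and 7.39 TPM. No member of the clock list or of the hypoxia and angiogenesis list passed without the vehicle libraries rich in liver transcripts.

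Of the rises, Slc10a6 (chr5:103605711-103629403), which encodes a transporter of sulfated steroids, was among the most stable, being called in 24 of the 25 other settings and exclusions. It rose from 4.26, 4.68 and 6.08 TPM to 8.33, 13.1 and 22.9 TPM, a log2 fold change of 1.35 (SE 0.28, limma/voom FDR 0.00408). Cebpd, a transcription factor gene induced early in fat cell formation and by glucocorticoids, rose from 11.6, 13.8 and 15.8 TPM to 22.8, 27 and 60.7 TPM, a log2 fold change of 1.15 (SE 0.28, limma/voom FDR 0.0151). Net1, which encodes a guanine nucleotide exchange factor for RhoA, rose from 33.6, 55.4 and 69.8 TPM to 87.3, 116 and 297 TPM, a log2 fold change of 1.25 (SE 0.26, limma/voom FDR 0.00581). Treated mice 20 and 23 were the highest for Cebpd and Net1. These mice were also the richest of their group in adipocyte markers, whose part in these levels was not tested. Without treated mouse 23 the call of Cebpd was lost and that of Net1 was kept.

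Gadd45g, a stress-induced growth arrest gene, was at 27.4, 38 and 47.2 TPM in vehicle and 59.9, 76.5 and 106 TPM at 20 nmol/kg (1.06, SE 0.20, limma/voom FDR 0.00179). Eva1c rose by 1.57 (SE 0.32, FDR 0.00415), Edn1, which encodes the vasoconstrictor endothelin-1, by 1.23 (SE 0.31, FDR 0.0193) and Tent5b by 1.09 (SE 0.25, FDR 0.0108). Piezo2, a mechanically gated channel gene, rose by 1.04 (SE 0.27, FDR 0.0238), at 1.03 to 1.96 TPM in vehicle and 2.02 to 4.8 TPM at 20 nmol/kg. Thbs2, which encodes the matrix protein thrombospondin-2, rose by 1.27 (SE 0.26, FDR 0.00364), from 15.3, 46 and 61.8 TPM to 64.4, 87.7 and 177 TPM.

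Lrp2, Pkhd1l1 and Fmod moved with the mesothelial markers. Lrp2, the endocytic receptor megalin, was at 0.07 and 0.02 TPM in vehicle mice 1 and 6, at 0.38 to 0.60 TPM in the other 4 and at 0.69, 0.96 and 1.45 TPM at 20 nmol/kg, for a log2 fold change of 2.09 (SE 0.61, FDR 0.0423). Pkhd1l1 was at 0.43 and 0.22 TPM in the same 2 mice, at 3.35 to 4.81 TPM in the other 4 and at 5.44, 6.12 and 11.8 TPM at 20 nmol/kg, for a log2 fold change of 1.97 (SE 0.57, FDR 0.0387). Fmod, which encodes the collagen-binding proteoglycan fibromodulin, followed the same order, with 6.23 and 3.92 TPM in mice 1 and 6, 13.48 to 20.14 TPM in the other 4 and 25.1, 30.4 and 42.2 TPM at 20 nmol/kg (1.49, SE 0.40, FDR 0.0275).

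All 9 mesothelial markers that were not set aside had a log2 fold change above 0, with a median of 1.77. Of these 2 were called, beside 0.342% of all genes called higher, Upk3b at 1.99 (SE 0.60, FDR 0.0486) and Gpm6a at 1.77 (SE 0.53, FDR 0.0486). Upk3b was at 1.02, 15.4 and 33 TPM in vehicle and 28.9, 34.4 and 70.1 TPM at 20 nmol/kg. Msln, which encodes mesothelin, was at 0.91, 9.03 and 21 TPM in vehicle and 17.4, 20.0 and 44.9 TPM at 20 nmol/kg (1.82, SE 0.56, FDR 0.0551). Without vehicle mice 1 and 6, none of the 9 passed the FDR, and Lrp2, Pkhd1l1 and Fmod stood at 0.86 (FDR 0.414), 0.96 (FDR 0.333) and 0.94 (FDR 0.216). Thbs2, Slc10a6, Net1, Gadd45g and Eva1c were called without those 2 mice as well, with FDRs from 0.0029 to 0.012.

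At the matched dose of 20 nmol/kg, BI 456906 and semaglutide were compared directly as the 1 pair of compounds. The study reports that the dual agonist was less potent than semaglutide at the receptor both activate, and that plasma exposures differed at equal doses. A matched dose is thus not matched activity at that shared receptor. The part of the added glucagon receptor activity was not tested apart from these differences. No gene was called (0% of 17852), the smallest limma/voom FDR was 0.605, and 806 genes (4.51%) had an unadjusted p under 0.05. The quasi-likelihood test of edgeR called 0 genes and DESeq2 called 2. For Oxtr, semaglutide gave 4.66 TPM as the median against 5.29 TPM with BI 456906, a difference of 0.41 on the log2 scale (95% interval -0.50 to 1.32). For Dgat2 the difference was 0.23 (-0.49 to 0.95), for Pnpla3 -0.46 (-1.09 to 0.17), for Lpl -0.08 (-0.25 to 0.09) and for Slc10a6 -0.14 (-0.59 to 0.31). The intervals of Oxtr and Pnpla3 both reach past the size used for a call, and a missed threshold does not show, for any of these genes, that the compounds act alike. Of the 24 named rises and falls, 1 had an unadjusted interval that left out 0, Pvalb at -1.57 (-2.94 to -0.20, FDR 0.983). The median difference was -0.66 over the proliferation list, 0.79 over the mesothelial markers and -0.71 over the mast cell and granulocyte markers, with 0 members of each past the FDR.

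**Figure D4:**
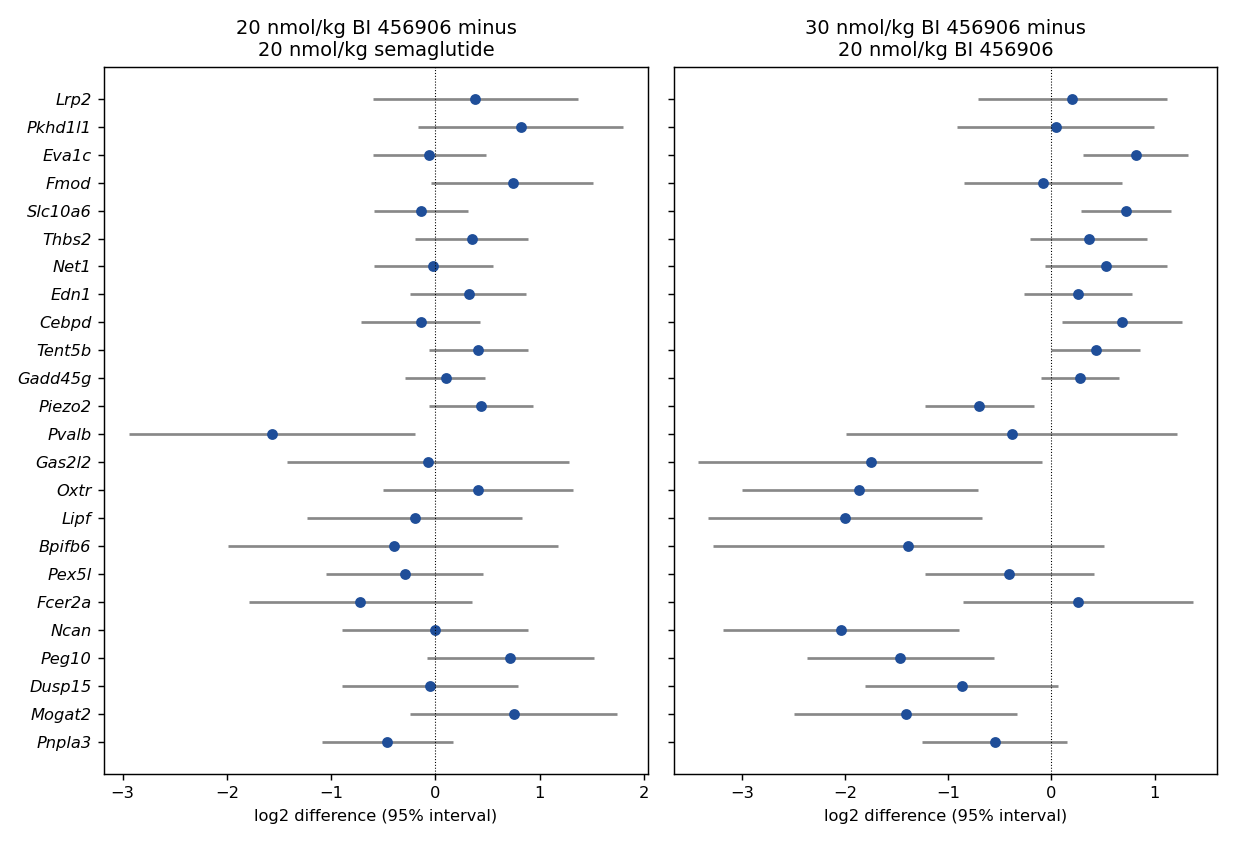
Log2 differences with unadjusted 95% intervals for the 24 named genes, between BI 456906 and semaglutide at 20 nmol/kg (left) and between BI 456906 at 30 and at 20 nmol/kg (right). On the left the interval of 1 gene, Pvalb, leaves out 0, and on the right those of 11 genes do, that of Oxtr running from -3.00 to -0.71, with no gene past the FDR in either comparison.

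BI 456906 at 30 nmol/kg was then set against 20 nmol/kg. No gene was called (0% of 17852), the smallest limma/voom FDR was 0.0924, and 2090 genes (11.7%) had an unadjusted p under 0.05. The quasi-likelihood test of edgeR called 0 genes and DESeq2 called 5. With sample quality weights, 226 genes were called higher and 210 lower, and the treated libraries had weights from 0.221 to 2.428. Of the 24 named rises and falls, 11 had an unadjusted interval that left out 0, and none passed the FDR. The 20 nmol/kg mice stand in both this comparison and that with vehicle, so the 2 are not set against each other and single genes are given by their own values. Oxtr went from a median of 5.29 TPM to 1.34 TPM, a difference of -1.86 (95% interval -3.00 to -0.71, FDR 0.217), Ncan by -2.04 (-3.18 to -0.90, FDR 0.185) and Mest by -2.28 (-3.39 to -1.17). Slc10a6 differed by 0.72 (0.29 to 1.16, FDR 0.203), Cebpd by 0.68 (0.10 to 1.27, FDR 0.355) and Piezo2 by -0.70 (-1.22 to -0.17, FDR 0.29).

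Side by side over the doses, the Oxtr median was 38.6 TPM in vehicle, and with BI 456906 it was 19.4 (3 nmol/kg), 7.32 (10 nmol/kg), 5.29 (20 nmol/kg) and 1.34 TPM (30 nmol/kg). Dgat2 medians were 751 TPM in vehicle and 552, 328, 309 and 191 TPM at the same doses. Lep medians were 965 TPM in vehicle and 868, 434, 425 and 306 TPM. The medians of 20 nmol/kg were thus close to those of 10 nmol/kg in Dgat2 and Lep, and the mice of these groups overlapped. Cebpd medians were 13.8 TPM in vehicle and 20.6, 18.4, 27 and 60.7 TPM, so the largest step lay between 20 and 30 nmol/kg.

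**Figure D5:**
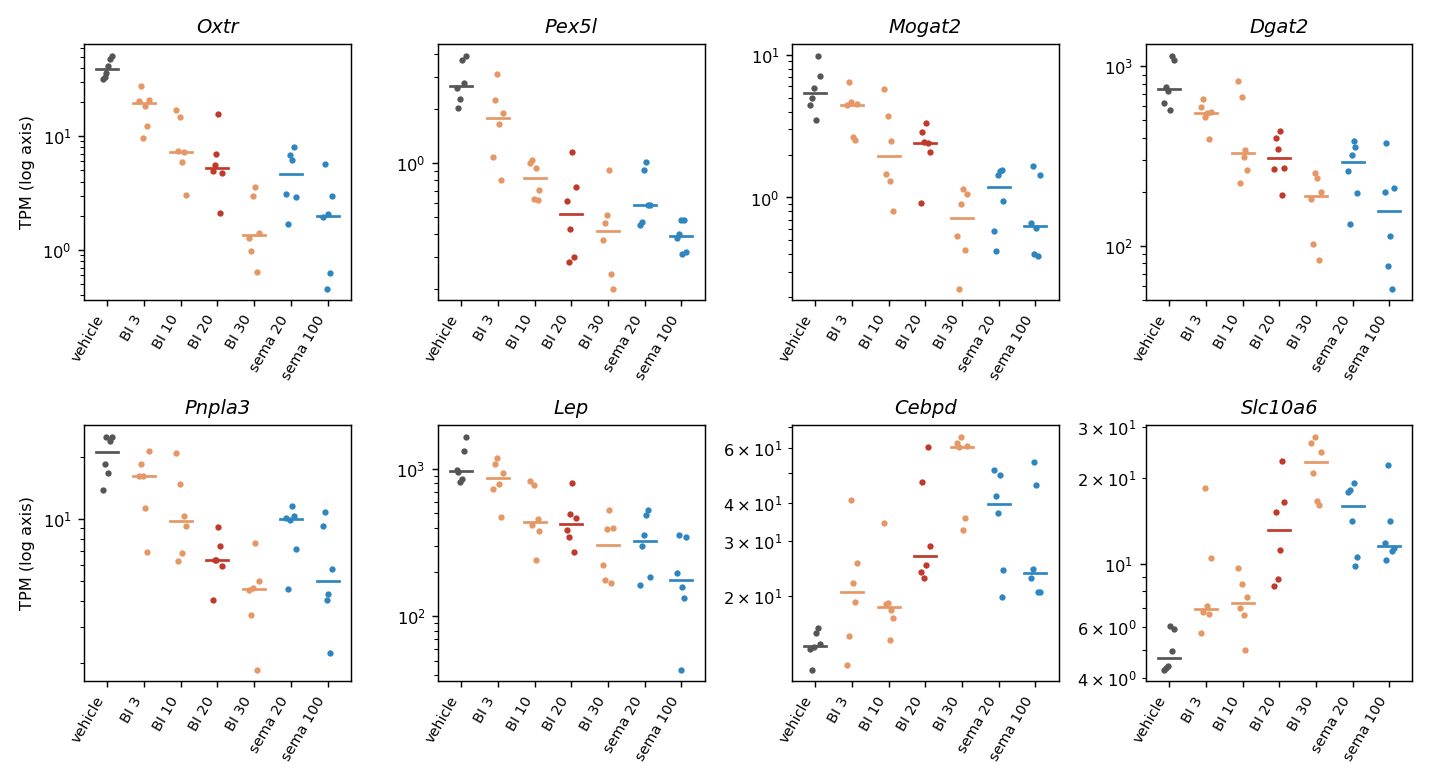
TPM (log axis) of 8 genes in the 42 eWAT mice by group, with vehicle in grey, BI 456906 at 20 nmol/kg in red, its other doses in orange and semaglutide (sema) in blue, doses in nmol/kg; points are mice and bars are medians. Oxtr medians step down from 38.6 TPM in vehicle to 1.34 TPM at BI 456906 30 nmol/kg, and Cebpd medians reach 60.7 TPM at 30 nmol/kg.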

How the data were processed

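RNA of eWAT was sequenced in 42 mice, 6 in each of 7 groups, of which 12 mice are compared here. The authors deposited a table of scaled read counts per gene, a signal that is not whole because each library was divided by one factor, and a table of TPM. Every value of the 42 libraries was a whole multiple of 1 step per library (100.0% within 0.1), which gave back whole reads of 37573004 to 53996914 per library. The submitters' processing notes list STAR 2.5.2b, RSEM 1.3.0, featureCounts 1.5.1 and FastQC 0.11.5 with mm10 and GRCm38. The labels describe single-end reads from a low-input kit, and the study's methods describe paired, strand-specific libraries, so whether strand was used in counting is not settled. Of the 47 genes that met the naming rule, 9 share exon positions with another gene in GENCODE M21, and H2-K1 has near copies that can share reads.

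Each column was matched to a sample by the library number in its title, and symbols were found for 48348 of 48794 genes. Because the deposited values are a signal rather than counts, limma/voom (limma 3.58.1, edgeR 4.0.16, R 4.3.3) was run on this signal in 1 fit over the 42 libraries. The study's methods name limma/voom on featureCounts output, and TMM factors, filterByExpr and a pseudocount of 0.5 were chosen here. As alternatives, DESeq2 1.42.0 and edgeR's quasi-likelihood test were run on the recovered reads. Both thresholds of a call are those of the study's methods. The procedure was also run on simulated data with the same spread for every gene. Differences between libraries in liver, B cell, mesothelial or adipocyte content were not simulated, so that run does not bear on them. No 2 libraries of a group agreed within counting error (chi-square per degree of freedom of 13.3 or more in each of 30 pairs). Single mice are the replicates, the headers show a single flow cell, and no preparation batch is labelled.

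Genes named for the vehicle comparison were the 12 largest rises and 12 largest falls among called genes with at least 1 TPM in the higher group, groups that did not overlap and a symbol that is not a gene model. Named with them were the 4 members of each gene list with the smallest FDR, the receptors Gcgr, Glp1r and Gipr and the liver markers. Other list members, and Adipoq, Fabp4, Ucp1, Cd74, H2-DMa and Tapbp, were added to these with their values known. The comparison, the 19 gene lists, the 14 marker lists and the rules were chosen with earlier results of these data known. Promoter windows were those of RefSeq (GRCm38.p6), shortened to the 250 bases before the start. Exclusions by B cell and mesothelial markers were chosen after the marker levels were seen.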

Additional observations from a re-analysis of the deposited data

Results flagged for a closer look

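Single libraries were tested for standing apart within each group of 6 (the gap to the nearest library, over the range, above Dixon's 95% critical value), for the 24 named genes and the 14 marker sums, 76 tests in all, of which 4 passed. Chance flags about 1 group in 20, and 4 of 76 is near that share. The tests share libraries and are not independent, so this count gives no verdict on any flag. All 4 lay in the 20 nmol/kg group. In mouse 22, Oxtr was at 15.7 TPM against 2.11 to 6.91 TPM in the other 5, the summed B cell markers were at 1371 TPM against 154 to 338 TPM, and the summed T cell and NK cell markers were at 58.6 TPM against 22.8 to 27.4 TPM. In mouse 23, Net1 was at 297 TPM against 87.3 to 162 TPM in the other 5. Both Oxtr and Net1 were called without the mouse concerned.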

How the results depend on the processing

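No paired analysis was possible because the library numbers differ in every group. Against vehicle, 61 genes were called higher and 111 lower. The counts were 38 and 55 with at least 10 counts in every library, 16 and 51 with only the 2 groups fitted, 18 and 35 on log2(TPM + 1), 253 and 410 by FDR alone, and 103 and 388 with DESeq2. The quasi-likelihood test of edgeR called 302 lower, and 215 were lower with no gene set aside. Leaving out 1 library gave 30 to 82 higher and 66 to 138 lower. Vehicle mouse 1 (40 higher without it), vehicle mouse 3 (31 higher), treated mouse 23 (32 higher, 66 lower) and treated mouse 24 (30 higher) each moved a count by over 1.5 times. Without the vehicle libraries rich in liver transcripts the counts were 4 and 43, without those rich in B cell transcripts 14 higher, and without those low in mesothelial markers 25 higher. The cause was not tested, and fewer mice are compared in each exclusion. Against semaglutide at 20 nmol/kg, sample quality weights called 1 higher and 2 lower and DESeq2 called 2 higher. Between 30 and 20 nmol/kg, the fit with no filter called 1 higher, quality weights called 226 higher and 210 lower, and DESeq2 called 5 lower. Other settings kept every count within 1.5 times. Over 25 other settings and exclusions the 24 named genes gave 592 values, of which 517 kept the call, 75 lost it and 0 changed sign. Of these 24 genes, 16 were not called without the vehicle libraries rich in liver transcripts, 10 with only the 2 groups fitted and 8 without the libraries rich in B cell transcripts. Low reads limit Pvalb, Lipf, Bpifb6 and Fcer2a, with 7 reads or fewer in at least 1 treated library each.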

Other observations

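A further 23 genes met the naming rule against vehicle, 1 higher and 22 lower, all read from the same fit. The 1 higher was Gpr39, a zinc-sensing receptor gene, at 1.01 on the log2 scale (SE 0.24, limma/voom FDR 0.0133). Of the lower genes, the most abundant was Hp, which encodes the haemoglobin-binding protein haptoglobin. Hp was at 1962, 2545 and 3477 TPM (lowest, median and highest) in vehicle and at 855, 1129 and 1548 TPM at 20 nmol/kg, for a log2 difference of -1.19 (SE 0.27, limma/voom FDR 0.0106). Its mean liver level was 5972 TPM, so that it was below the ratio used to set genes aside. Without the vehicle libraries rich in liver transcripts it stood at -1.19 with an FDR of 0.216.

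Trp53inp2, an autophagy and transcription cofactor gene, was at 229, 254 and 398 TPM in vehicle and 81.3, 126 and 177 TPM at 20 nmol/kg, for a log2 difference of -1.18 (SE 0.20, limma/voom FDR 0.000637). Fmr1, which encodes the RNA-binding protein FMRP, was at -1.15 (SE 0.18, FDR 0.000311), St14, a membrane serine protease gene, at -1.32 (SE 0.20, FDR 0.000212) and Lpar3, a lysophosphatidic acid receptor gene, at -1.63 (SE 0.26, FDR 0.000323). The GTPase gene Diras2 was at -1.16 (SE 0.17, FDR 0.000122) and the receptor kinase gene Ret at -1.18 (SE 0.21, FDR 0.000977). Lag3 and Cd226, receptors of lymphocytes, were at -1.27 (FDR 0.0105) and -1.10 (FDR 0.0244), beside T cell and NK cell marker sums of 24.5 to 219 TPM in vehicle and 22.8 to 58.6 TPM at 20 nmol/kg, whose part in these values was not tested. In vehicle mice 1 and 3 Lag3 was at 7.56 and 15.22 TPM and Cd226 at 5.7 and 6.84 TPM. The other vehicle mice were at 3.16 to 4.42 TPM for Lag3 and 2.03 to 2.22 TPM for Cd226. Treated mice were at 1.73 to 3.15 TPM and 0.93 to 1.95 TPM. These genes were picked from the 23 after their values were seen.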
